A study of Drosophila melanogaster with 51 samples.

Results

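HP1 and H3K9me3 peaks on chromosome 4 of Drosophila melanogaster are described here as they lie along the chromosome, against the ends and bodies of its genes, and where one list has peaks and the other has none. The members are all chromosome 4 intervals of 2 deposited peak lists, 277 of the 1435 HP1 intervals and 216 of the 2245 H3K9me3 intervals, together 493 of 3680. Each listed interval is called a peak. No measured value entered the choice.

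HP1a is a chromatin protein whose chromodomain binds histone H3 methylated at lysine 9, and whose other domains let it self-associate and recruit further proteins. H3K9me3 and HP1a mark the repeat-rich, mostly silent chromatin around centromeres. Chromosome 4 is the small chromosome of the fly. Its arm is largely heterochromatic and repeat-rich, yet it carries genes that are transcribed inside this chromatin, and the methyltransferase Eggless and the binding protein POF are known to act on it.

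The study used CUT&RUN, which sequences the DNA that an antibody-guided nuclease cuts free around its target, on wing imaginal discs, the larval tissue that gives rise to the wing and the body wall beside it. At least 20 discs of wandering third-instar females kept at 25 °C went into each of the 51 libraries, of which 16 are for HP1a and 15 for H3K9me3. The lists belong to the whole series, so a peak has no value per library, the spread between replicates could not be measured, and depth is unknown. The labels give no age in days.

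The names in the lists point to different sources for the 2 targets. All HP1 peaks of chromosome 4 come from a call named ywdf, with the words sup and merge, and what ywdf stands for is not given in the sources used here. The HP1a libraries are titled HP1a-control, HP1a-chromo, HWT or K9R, and the word sup stands in the titles of anti-GFP libraries only, from GFP-HP1a/GFP-HP1a, GFP-HP1a/+, CrGFP-HP1a and CrGFP-HP1chromo discs. The HP1 source could therefore not be matched to a labelled genotype. The H3K9me3 libraries are of HP1a-control, HP1a-chromo, HWT, K9R and yw discs, with 3 in each group. Of the H3K9me3 peaks 213 come from replicate 1 of HWT, named pel. HWT larvae carry a deletion of the replication-dependent histone gene cluster (∆HisC) on both second chromosomes, with twi-Gal4 on one and UAS-2xEYFP on the other, and a transgenic cluster that supplies wild-type H3.2. The other 3 H3K9me3 peaks carry ywdf and lie at the end of Zip102B, inside CG11360 and beyond the last gene. A place with one list only, and any other difference between the lists given below, may therefore be one of source as well as of target. The lists cannot tell these apart.

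Many peaks are pieces of a longer call. There are 141 call names among the 277 HP1 peaks and 121 among the 216 H3K9me3 peaks. In 73.3% of the HP1 peaks and 67.6% of the HWT H3K9me3 peaks the recorded summit lies outside the interval, so the fold enrichment and q-value belong to the whole call. Call numbers rise along the chromosome. Numbers missing between listed ones are read here as calls that were made and not listed, which assumes that each run numbered its calls in order. Of the 376 HP1 numbers between the first and last listed on chromosome 4, 141 are listed (37.5%), and of the 206 HWT H3K9me3 numbers 118 are (57.3%). On that reading the lists are a selection of calls. A gap in them is a stretch with no listed peak.

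Both targets covered nearly equal amounts of the chromosome, and each had about as many bases alone as with the other. HP1 peaks covered 247 kb and H3K9me3 peaks 237 kb of the 1317 kb up to the last coordinate in the lists or gene table. They shared 127 kb, 9.65% of the chromosome. HP1 alone lay on 120.1 kb, H3K9me3 alone on 110.02 kb, and neither on 959 kb (72.9%). Of the HP1 bases 51.4% were also under H3K9me3, and of the H3K9me3 bases 53.6% were under HP1. The lists reach down to unlike q-values, with a lowest −log10 q per call of 5.02 for HP1 and 1.38 for H3K9me3. From a −log10 q of 10, 232 HP1 and 147 H3K9me3 peaks were left, over 226 kb and 213 kb. By peaks, 146 of 277 HP1 peaks touched an H3K9me3 peak by at least 1 bp (52.7%, exact binomial 95% interval 46.6 to 58.7), where 32.1% of the HP1 peaks of all chromosomes did. Of the H3K9me3 peaks 121 of 216 touched an HP1 peak (56.0%, 49.1 to 62.7), where 22.4% did over all chromosomes. These intervals cover counting error only, and neighbouring peaks are not independent. Chromosome 4 is itself part of both totals. In the pericentric parts of the other chromosomes 50% of HP1 peaks touched H3K9me3, near the 52.7% here, and in their arms 6.86% did. For H3K9me3 peaks touching HP1 the shares were 17.2% in pericentric parts and 40.1% in arms.

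Peaks that touched the other list were wider and came from stronger calls. The median HP1 peak was 554 bp wide (11 to 5153). Those touching H3K9me3 had a median of 856.5 bp and the others 382 bp. The median H3K9me3 peak was 531 bp wide (9 to 8893), with 846 bp for those touching HP1 and 367 bp for the rest. The authors' fold enrichment per HP1 call had a median of 5.88 in 80 calls that touched H3K9me3 and 4.03 in 61 that did not. Per H3K9me3 call the medians were 9.21 in 76 calls and 4.95 in 45. A wider peak has more bases with which to touch another, so width and touching are not independent measures.

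The widest peaks lay across genes of several kinds, and all 10 of the 5 widest in each list touched the other list. The widest H3K9me3 peak, 8893 bp at 1009722 to 1018614, lay in PlexA, a semaphorin receptor of axon guidance, and 61.3% of it was under HP1. The next, of 8577 bp, lay in PMCA, a plasma membrane calcium pump, and 50.2% of it was under HP1. The third, of 6554 bp, ran from Pur-alpha, a single-stranded nucleic acid binding protein, into ND-49, a subunit of respiratory complex I. The fifth, of 5934 bp, lay in CaMKII, a calcium-dependent kinase of synapses, and only 18.6% of it was under HP1. Among the widest HP1 peaks, one of 4501 bp at 1230443 to 1234943 ran from Dyrk3, a kinase, into Cadps, and 43.1% of it was under H3K9me3.

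**Figure D1:**
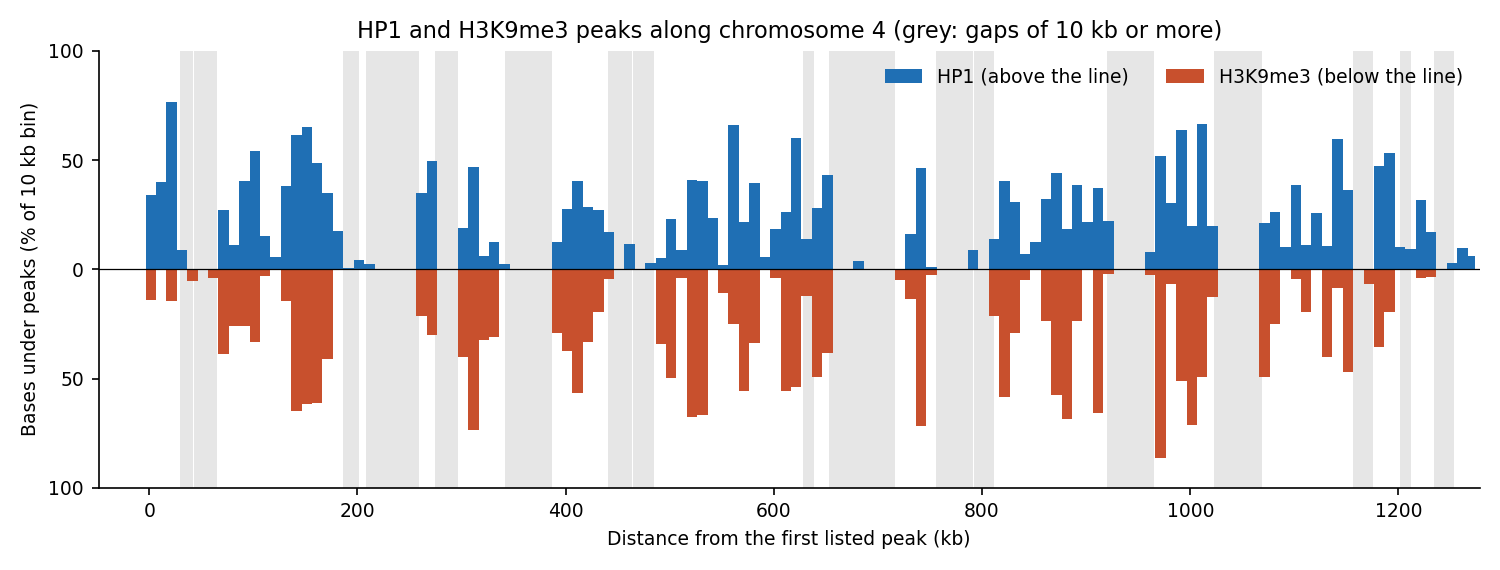
Share of each 10 kb bin of chromosome 4 under HP1 peaks (upwards) and H3K9me3 peaks (downwards), in percent, against the distance from the first listed peak in kb, with gaps of 10 kb or more in grey. Clusters of bins with both lists alternate with grey gaps, HP1 reaches 76.7% and H3K9me3 86.1% of a bin, and the right end has HP1 bars only.

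The lists began close together on the chromosome, at 43567 for HP1 and 43847 for H3K9me3, and ended farther apart. The first 43.6 kb, which hold JYalpha, a sodium and potassium pump subunit, and most of PlexB, a second semaphorin receptor, had no listed peak of either kind. The last H3K9me3 peak ended at 1277674 and the last HP1 peak at 1316639, while the last protein-coding gene, Cadps, ended at 1271759. In 5 equal parts of the chromosome H3K9me3 covered 15.5%, 15.5%, 24.7%, 22.3% and 11.95%, in that order, and HP1 22.2%, 12.8%, 20.4%, 19.9% and 18.6%. H3K9me3 was thus highest in the middle and next part, whereas HP1 was highest in the first and lowest in the one after it. Among 132 bins of 10 kb, 71 held both lists, 22 HP1 only, 4 H3K9me3 only and 35 neither. Across these bins the covered shares had a Pearson correlation of 0.682 and a Spearman correlation of 0.776. This is a description, since neighbouring bins share calls and genes.

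Peaks stood close together within clusters. The space from one HP1 peak to the next had a median of 1097.5 bp and ranged from 187 to 52724 bp. For H3K9me3 the median was 1109 bp, from 78 to 83682 bp. Much of this closeness is inside calls, where neighbouring pieces lay a median of 490.5 bp (HP1) and 386 bp (H3K9me3) apart. Between neighbouring calls the medians were 3074.5 bp and 2144 bp.

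Peaks of either list at most 2 kb apart were joined into domains. This gave 85 domains over 527 kb, 40.04% of the chromosome, with a median length of 2281 bp. In 43 domains both lists were present, and their median length was 9637 bp. Another 35 held HP1 only, with a median of 404 bp, and 7 held H3K9me3 only, with a median of 449 bp. Domains with one list were thus short, mostly 1 peak. The 21 domains of at least 10 kb held 71.4% of all domain bases, and all of them contained both lists.

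The longest domain, 47.6 kb at 172455 to 220040, ran from the end of CG33978 over Arl4, a small GTPase, and over CG31998 and Crk, an adaptor of receptor tyrosine kinase signalling, into CG31999. It held 18 HP1 and 16 H3K9me3 peaks, which covered 52.2% and 51.2% of it, and 34.9% was under both. The next, 36.3 kb at 1026418 to 1062724, ran from the end of PlexA into the overlap of Zyx, a focal adhesion protein, with apolpp, the precursor of the main blood lipoprotein. HP1 covered 54.5% of it and H3K9me3 52.6%. The third, 27.5 kb at 435882 to 463413, covered lgs, a Wnt pathway coactivator, CaMKI, a calcium-dependent kinase, and part of Taf3, a subunit of the general transcription factor TFIID. In it the lists were unequal, with 33.6% under HP1 and 55.3% under H3K9me3. The balance ran the other way in the domain over RpS3A, a ribosomal protein gene, at 56113 to 70484, where HP1 covered 81.8% and H3K9me3 10.03%.

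**Figure D2:**
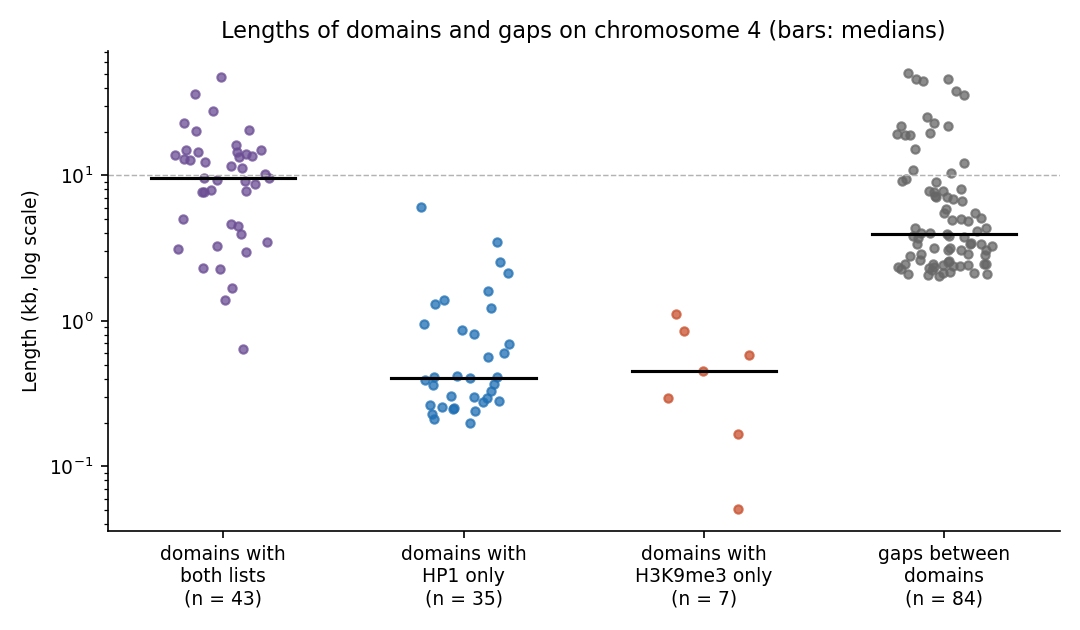
Lengths in kb on a log scale of the domains with both lists, with HP1 only and with H3K9me3 only, and of the gaps between domains. Each point is 1 domain or gap, bars are medians and the dashed line marks 10 kb. Domains with both lists have a median of 9637 bp, while those with 1 list lie mostly under 1000 bp, and 18 of the 84 gaps are 10 kb or longer.

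Between domains lay 84 gaps with a median of 3957 bp. The 18 gaps of at least 10 kb added up to 478 kb, 36.3% of the chromosome. Of their bases 79.5% lay in annotated genes, where 80.8% of all bases did. The longest, 50.9 kb at 251515 to 302403, held RhoGAP102A, a regulator of small GTPases, and NfI, a transcription factor of the nuclear factor I family, whole. It also took in much of Syt7, a calcium sensor of vesicle release. The next, 46.3 kb at 1066689 to 1112943, held Actbeta, an activin-type ligand, and nearly all of sv, a transcription factor of the Pax family. A gap of 45.7 kb at 385048 to 430721 covered part of dati, a zinc finger transcription factor, and the intergenic space beyond it. The gap of 44.9 kb at 963535 to 1008402 held toy, and that of 25.0 kb at 697020 to 722021 held ey, the 2 Pax6 genes of eye development. The fifth, 37.8 kb at 722386 to 760167, lay in bt, which encodes the giant muscle protein projectin. One of 35.6 kb held Sox102F, a high-mobility-group transcription factor.

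Missing call numbers at the long gaps varied from 0 to 23. By the call numbers on either side, up to 23 HP1 calls and 11 HWT H3K9me3 calls were unlisted at 1 long gap, both in that from dpr7 to Syt7. The same 11 calls also border the neighbouring gap of 15.3 kb at yellow-h and CG1674. At ey the counts were 5 for HP1 and 0 for H3K9me3, and at bt 12 and 0. Of the 17 long gaps with HWT H3K9me3 calls on both sides, 6 had no unlisted H3K9me3 call, namely those at ey, bt, CG11360 and Mitf and both at zfh2. The gap in Mitf at 1199631 to 1218645 was the 1 long gap with no unlisted call of either kind. An unlisted call is placed between its listed neighbours and not at a position, so it may lie beside the gap.

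Gene ends were richer in peaks than gene bodies, more so in the HP1 list than in the H3K9me3 list, which also differ in source. Among all 114 annotated genes, bases within 200 bp of a gene start or end made up 6.35% of the chromosome. HP1 covered 44.5% of them, 15.7% of gene bodies farther in and 23.2% of the bases outside genes. H3K9me3 covered 31.2%, 17.7% and 14.5%. Set against the share of all bases in the class, HP1 was at 2.37 times at ends and 0.835 times in bodies. H3K9me3 was at 1.73 and 0.982 times. Bases with H3K9me3 and no HP1 showed the reverse order, at 0.520 times at ends and 1.20 times in bodies, and 92.0% of them lay in gene bodies, which make up 76.8% of the chromosome. The gene table gives no strand, so starts and ends of transcription could not be told apart.

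The order of the lists changed with distance into genes, with HP1 ahead near the ends, H3K9me3 ahead from 2000 to 10000 bp, and both low beyond. Inside protein-coding genes, HP1 covered 47.9% of the bases within 200 bp of an end, 43.1% from 200 to 500 bp, 33.7% from 500 to 1000 bp and 21.9% from 1000 to 2000 bp. It then covered 12.9% from 2000 to 5000 bp, 10.2% from 5000 to 10000 bp and 4.36% beyond. H3K9me3 fell less and not steadily. It covered 33.0% in the first class and 19.4% from 1000 to 2000 bp, then 23.4% from 2000 to 5000 bp, 16.4% from 5000 to 10000 bp and 3.55% beyond. H3K9me3 without HP1 was at 4.72% within 200 bp of an end, highest from 2000 to 5000 bp, at 16.3%, and at 2.58% beyond 10000 bp. Outside genes both lists stayed high close by, with HP1 at 53.2% and H3K9me3 at 37.9% from 200 to 500 bp. Both were low farther away, at 0.911% and 1.19% from 5000 to 10000 bp.

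**Figure D3:**
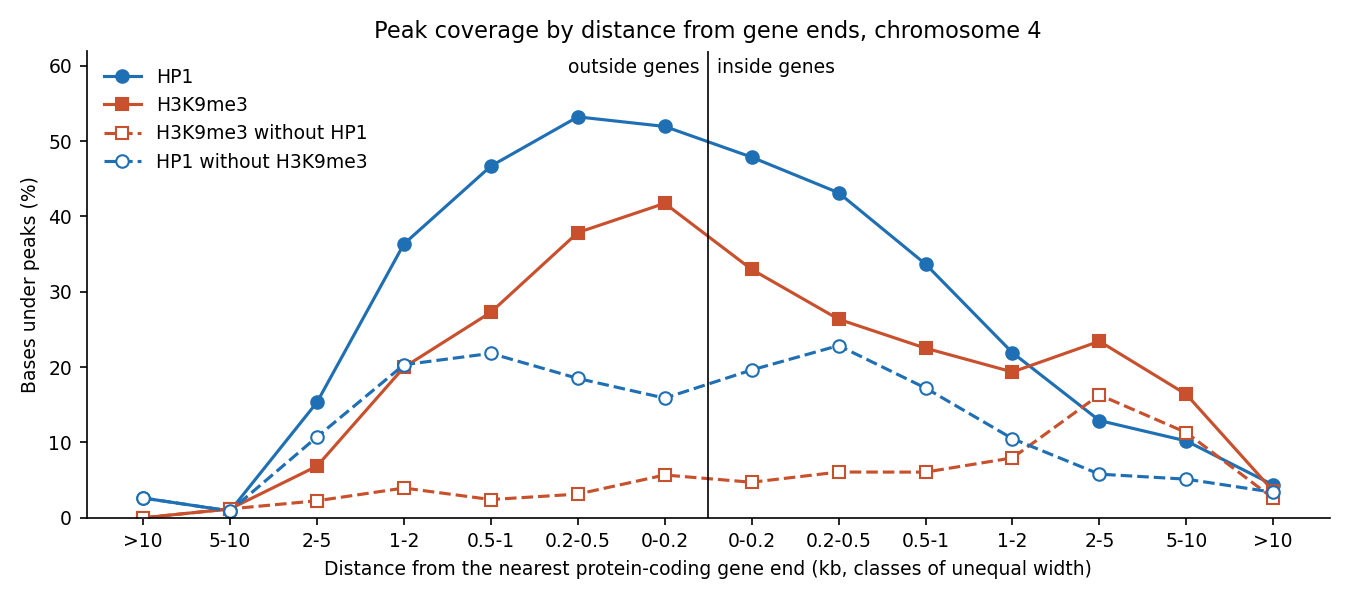
Percent of chromosome 4 bases under peaks against the distance from the nearest protein-coding gene end in kb, outside genes on the left and inside on the right, in classes of unequal width. HP1 (filled circles) is highest around gene ends and falls to 12.9% at 2 to 5 kb inside, where H3K9me3 (filled squares) is at 23.4% and H3K9me3 without HP1 (open squares) peaks at 16.3%.

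Gene by gene, the ends led for HP1 in most genes and for H3K9me3 in fewer. The 80 protein-coding genes were each divided into 10 equal parts, and parts at the same distance from either end were averaged. Mean HP1 coverage fell from 42.2% in the outermost parts to 13.7% in the middle ones, and mean H3K9me3 coverage from 28.7% to 19.7%. In the 62 genes of at least 5000 bp HP1 fell from 36.9% to 10.1%, but H3K9me3 was 24.04% and 23.8%. HP1 was higher in the outermost than in the middle parts in 59 genes, lower in 8 and equal in 13, of which 11 were at 0 in both. For H3K9me3 the counts were 34, 19 and 27, the 27 all at 0. In lgs the middle parts were 66.3% under H3K9me3 and at 0 for HP1, with 49.6% and 18.3% in the outermost. In unc-13, which primes synaptic vesicles for release, the outermost parts were 40.9% under HP1 and 43.6% under H3K9me3, and the middle parts were 4.54% and 0.

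Counted by peaks, the lists as a whole differed little, with 23.8% of HP1 and 23.1% of H3K9me3 peaks over at least 1 gene end. Their middle base lay in a gene body in 72.9% and 70.4%. Peaks differed by whether they touched the other list. Of the 146 HP1 peaks touching H3K9me3, 52 lay over at least 1 gene end (35.6%), and of the 131 others 14 did (10.7%). Of the 121 H3K9me3 peaks touching HP1, 46 lay over a gene end (38.0%), and of the 95 others 4 did (4.21%). The middle base of 83 of those 95 H3K9me3 peaks lay in a gene body more than 200 bp from an end. Peaks that touch the other list are also wider, as given above, and the part of width in this difference was not tested.

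Short spaces between protein-coding genes were often filled. Of 21 spaces under 1000 bp, 12 were wholly under HP1 and 7 wholly under H3K9me3, and 73.0% and 53.7% of their bases were covered. Of 27 spaces from 1000 to 3000 bp, 7 and 6 were wholly covered, with 51.1% and 36.5% of bases. Of 22 longer spaces 1 was wholly under HP1 and 0 under H3K9me3, with 22.0% and 12.7% of bases.

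Most genes of the chromosome had HP1 in the body, and every one with H3K9me3 also had HP1. At least 1 bp of an HP1 peak lay in 71 of the 80 protein-coding genes, where 3.22% of the protein-coding genes of the other chromosomes had one. H3K9me3 lay in 56, where 0.865% of the others did. In 15 genes there was HP1 only, in 0 H3K9me3 only, and in 9 neither. HP1 covered the larger share of the body in 44 genes and H3K9me3 in 27. Among the 18 genes under 5000 bp, HP1 led in 14 and H3K9me3 in 2, with median shares of 38.2% and 13.3%. From 5000 to 15000 bp HP1 led in 16 and H3K9me3 in 15 of 35 genes, and from 15000 bp in 14 and 10 of 27. Across the 80 genes, the Spearman correlation of gene length with the covered share was −0.41 for HP1 and −0.05 for H3K9me3, as a description only. A short gene has a larger part of its body near an end.

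**Figure D4:**
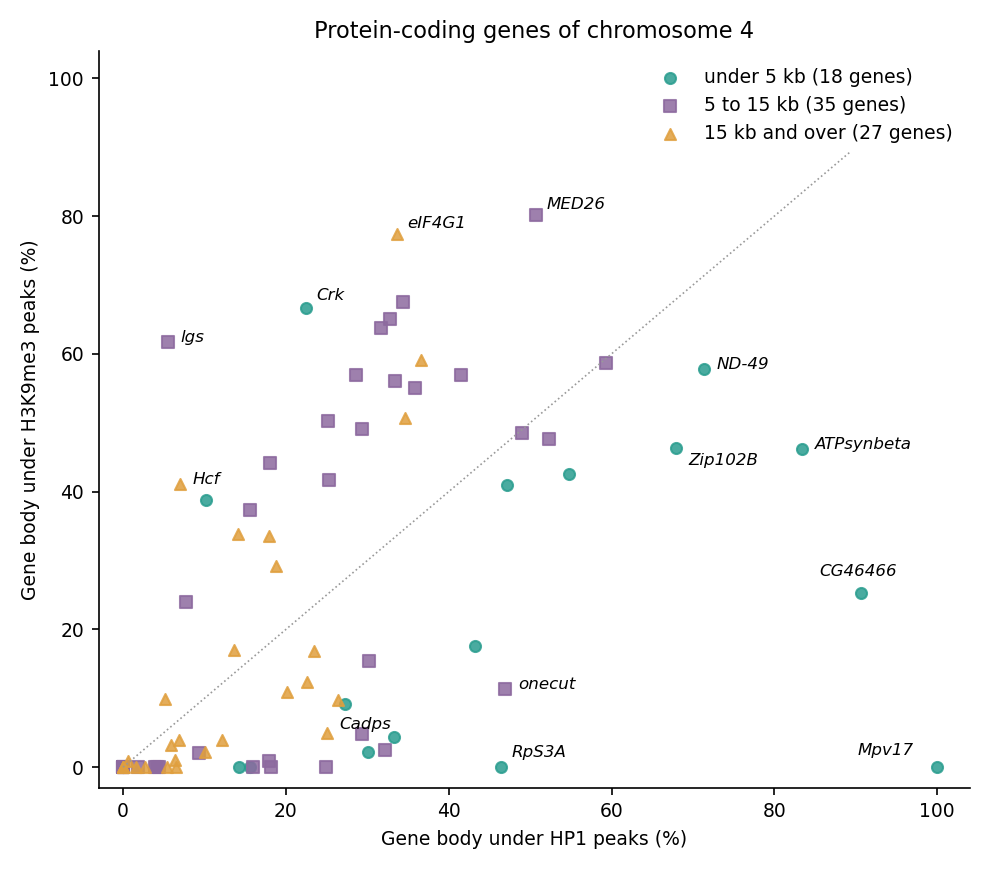
Share of the gene body under H3K9me3 peaks against the share under HP1 peaks, both in percent, for the 80 protein-coding genes of chromosome 4, with symbols by gene length and a dotted line of equal shares. Genes under 5000 bp lie mostly to the right of the line, lgs and Hcf lie far to the left of it with 5.48% and 7.02% under HP1, and Mpv17 is wholly under HP1 with no H3K9me3 peak.

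The genes with most of the body under both lists were of metabolism, transcription and growth factor signalling. In ND-49, 71.4% of the body was under HP1 and 57.9% under H3K9me3, all of the latter shared. MED26, a subunit of the Mediator complex, had 50.7% and 80.2%, with 48.4% shared. Zip102B, a zinc transporter, had 68.0% and 46.3%, all of the latter shared. ATPsynbeta, the catalytic subunit of mitochondrial ATP synthase, had 83.4% and 46.2%, but it overlaps CG11076 and the peaks cannot be assigned to either. In myo, a ligand of the TGF-beta family, the shares were 59.3% and 58.7%, with 45.0% shared.

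Among genes of housekeeping and metabolism, 14 of 15 had HP1 and 13 H3K9me3, with median body shares of 29.3% and 33.9%. Over all 80 protein-coding genes the counts were 71 and 56, and the medians 19.5% and 10.4%, so that the count for HP1 is near that of all genes. In eIF4G1, the scaffold of translation initiation, H3K9me3 covered 77.4% and HP1 33.7%. RpS3A had 46.4% under HP1 and no H3K9me3 peak in its body. JYalpha, near the left end, had neither. These lists of genes were drawn up by textbook role with earlier results of these data known, so their counts describe them and support nothing further.

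Among transcription and chromatin regulators, 11 of 15 genes had HP1 and 8 H3K9me3, with median shares of 5.48% and 3.25%, beside the 71 and 56 of 80 and the medians of 19.5% and 10.4% over all genes. The 4 with neither were ey, toy, Sox102F and fd102C, a forkhead factor. In ci, the transcription factor of Hedgehog signalling, HP1 covered 15.97% and H3K9me3 0. In pan, the TCF factor of Wnt signalling, the shares were 5.82% and 3.25%. In pho, a DNA-binding Polycomb group protein, they were 7.73% and 24.02%, and in Hcf, a chromatin cofactor, 7.02% and 41.1%. In onecut, a homeodomain factor, HP1 led with 47.0% over 11.4%. The median length of these 15 genes was 18198 bp, that of the 15 housekeeping genes 5625 bp, so the lists differ in length as well.

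Among genes of signalling, guidance and synapse, 12 of 13 had HP1 and 8 H3K9me3, with median shares of 22.5% and 4.89%. Both counts are near those over all genes, 71 and 56 of 80. H3K9me3 led in Ephrin (67.5% over 34.4%) and in its receptor Eph (63.8% over 31.7%), and in Crk (66.7% over 22.5%). HP1 led in Cadps, which acts in dense-core vesicle release, with 25.1% over 4.89%. In mGluR, a metabotropic glutamate receptor, HP1 covered 18.2% with no H3K9me3 peak, and Actbeta had neither. Of the 3 genes of cytoskeleton and muscle all had both lists, but bt had only 0.565% of its 52075 bp under HP1 and 0.960% under H3K9me3. Ank, an ankyrin, had 15.5% and 37.3%, and Kif3C, a kinesin, 20.2% and 10.9%. Kif3C overlaps CG32017, and all of its H3K9me3 lies in the overlap, so these peaks cannot be assigned to either gene.

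The 15 genes with HP1 only were PlexB, ci, RpS3A, CG31997, yellow-h, CG1674, dpr7, dati, CG1909, Gat, Ekar, mGluR, fuss, Mpv17 and sv. Their body shares ran from 1.53% in sv to 100% in Mpv17, a small protein of the inner mitochondrial membrane with a body of 687 bp. The HP1 in sv lies wholly in its overlap with Cals, and nearly all of Mpv17 overlaps asRNA:CR44031. HP1 in these overlaps cannot be assigned to either gene. The 9 with neither were JYalpha, CG32006, RhoGAP102A, NfI, ey, Sox102F, fd102C, toy and Actbeta. Sox102F had HP1 within 200 bp of its end at 834393 all the same. Among the genes with HP1 only, PlexB, RpS3A and CG31997 had H3K9me3 within 200 bp of their ends at 43778, 67207 and 156060, outside the body.

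The boundary from PMCA to Hcf shows the pattern of ends and bodies at 1 place, and that from Hcf to dati shows it less. The HP1 call with the highest fold of the chromosome, 33.3, is the 2428 bp peak at 357926 to 360353, which covers the end of PMCA, the space after it and the end of Hcf. Inside it lies an H3K9me3 peak of 2206 bp with a fold of 11.1, wholly under HP1. In the body of Hcf 9 H3K9me3 peaks follow, from 362687 to 374010, and none of them touches HP1. The 1 HP1 peak among them, 261 bp at 367845 to 368105, lies between the fifth and the sixth. At 374013 the next HP1 peak begins, and from there over dati to 430999 are 5 HP1 peaks and no H3K9me3 peak. The space of 85 bp between Hcf and dati was under neither list. HP1 lay within 200 bp of the dati end at 375640. Neither list lay within 200 bp of the Hcf end at 375554 or the dati end at 395605.

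Around lgs and CaMKI the lists met at the space between the genes, and they parted in most of the body of lgs. HP1 peaks at 443658 to 444799 and 445110 to 446463, with call folds of 12.5 and 14.8, covered all of the H3K9me3 peaks there. In lgs an H3K9me3 peak of 2409 bp at 438010 to 440418 was 0.540% under HP1, and the next, at 440595 and 441398, did not touch HP1. The body of CaMKI was mixed. Its H3K9me3 peaks from 448552 to 452043 did not touch HP1, but an HP1 peak of 1266 bp at 452337 to 453602 lay wholly under H3K9me3. From the end of PlexA over Mpv17 into CaMKII a single HP1 call, with a fold of 30.9, held 10 peaks from 1026418 to 1045127. H3K9me3 lay at both ends of ATPsynbeta and was absent from the HP1 peak of 1114 bp in its body. Farther on, the body of CaMKII had the H3K9me3 peak of 5934 bp, with HP1 on 18.6% of it.

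**Figure D5:**
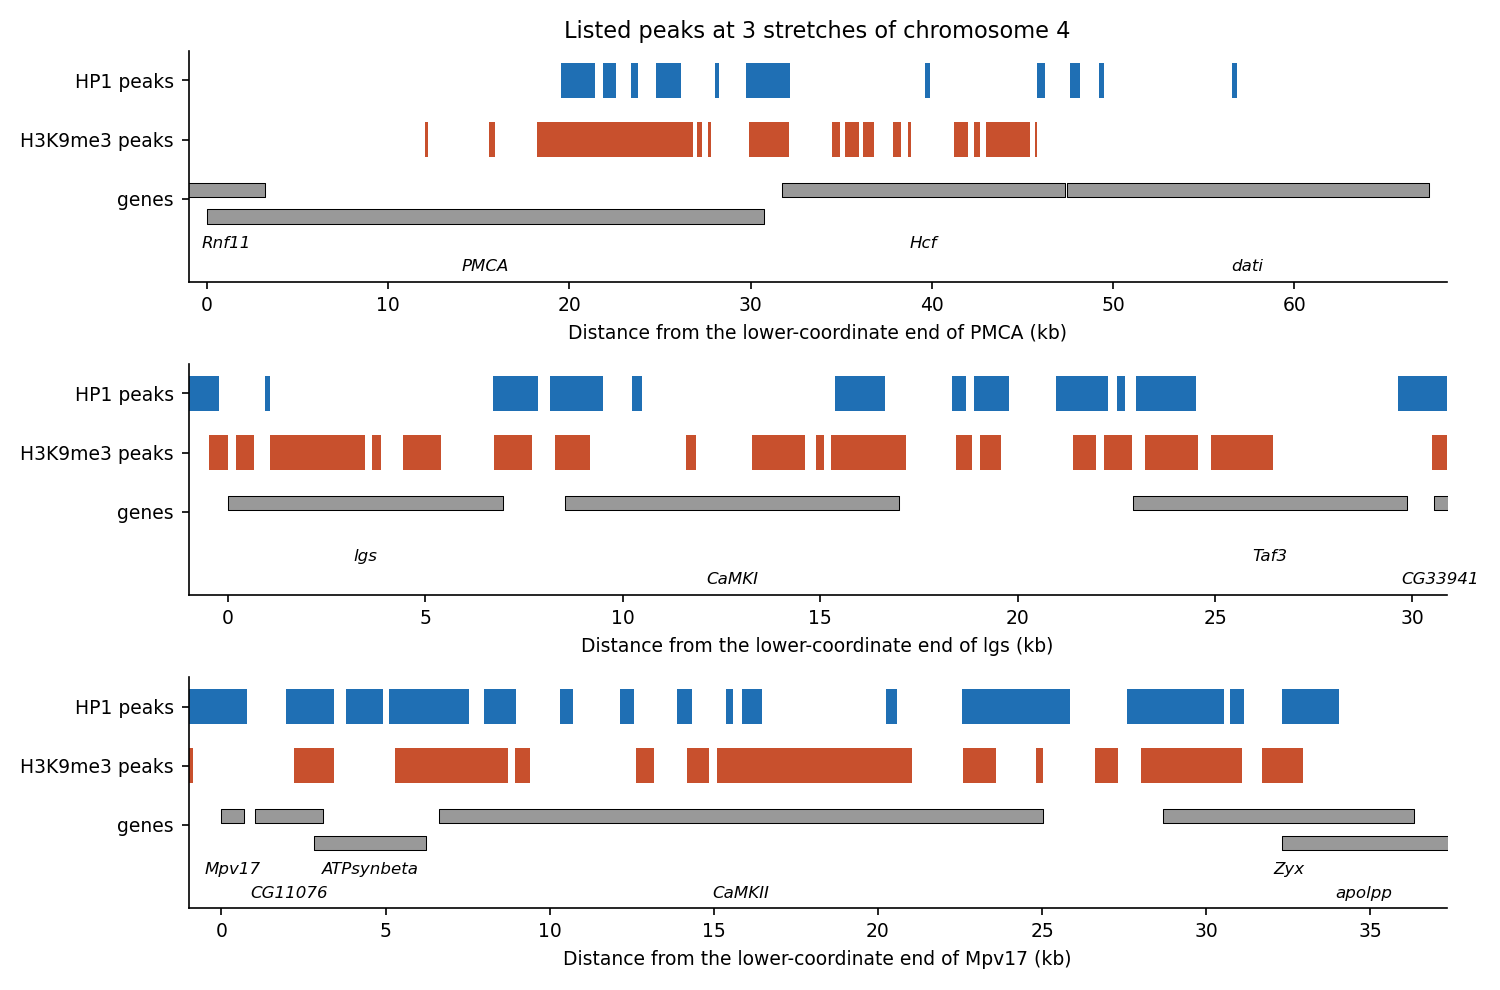
Listed HP1 peaks, H3K9me3 peaks and protein-coding genes at 3 stretches of chromosome 4, against the distance in kb from the lower-coordinate end of PMCA, lgs and Mpv17. In the top row the body of Hcf holds 9 H3K9me3 peaks that touch no HP1 peak, and dati holds HP1 peaks only.

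Stretches with HP1 only were longer and took up more of the unshared peaks than stretches with H3K9me3 only. Runs of at least 3 neighbouring peaks of 1 list, none touching and none separated by a peak of the other, numbered 20 for HP1. They held 90 of the 131 HP1 peaks that touched no H3K9me3 (68.7%), with a median length of 12235.5 bp. For H3K9me3 there were 7 runs with 25 of 95 such peaks (26.3%) and a median length of 4362 bp. The other unshared H3K9me3 peaks stood singly or in pairs between HP1 peaks. HP1 peaks without H3K9me3 were a median of 1915 bp from the nearest H3K9me3 peak, and 30 were farther than 5000 bp. H3K9me3 peaks without HP1 were a median of 1277 bp from HP1, and 5 were farther than that.

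The longest HP1 stretches were sparse and took in long gaps. The longest, 57.0 kb at 374013 to 430999 over the end of Hcf and dati, held 5 peaks of 1780 bp in all. The next, 56.5 kb at 798858 to 855374, held 4 peaks of 1368 bp around Sox102F and fd102C and in Gyf, a translational regulator. That of 47.2 kb at 961428 to 1008602 held 4 peaks around fuss, a gene of the Ski/Sno family, and toy. One of 31.8 kb at 219742 to 251514 held 6 peaks from CG31999 over yellow-h and CG1674 to dpr7, a cell-surface immunoglobulin protein. One of 21.4 kb lay in zfh2, a zinc finger homeodomain factor. Denser HP1 runs of 8 peaks each lay over CG11155, CG32017 and Kif3C (20.1 kb) and at the right end of Cadps (13.1 kb). By call numbers, up to 11 HWT H3K9me3 calls were unlisted in these 7 stretches, 11 at that from CG31999 to dpr7, 7 at that over dati and 0 at that in zfh2.

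H3K9me3 stretches were mostly inside 1 gene. The longest, 23.3 kb at 85733 to 109061, held 3 small peaks of 936 bp in pan around a long gap, and 16 HP1 calls there were unlisted. The others were compact. One of 5343 bp lay in Eph with 3 peaks, those of 4585 and 4362 bp in Hcf with 4 and 5 peaks, and one of 3574 bp in Gyf with 4 peaks. The remaining ones lay in CaMKI (3492 bp) and in Tdg, a thymine DNA glycosylase (1868 bp). In these 6 compact stretches 1 to 3 HP1 calls were unlisted.

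Set beside the other compartments, a larger share of the peaks of chromosome 4 lay in gene bodies, which make up 76.8% of its bases. That share of bases was not computed for the other compartments, so the values are given side by side only. The middle base of a peak lay in a gene body for 72.9% of HP1 peaks on chromosome 4, 35.6% in the pericentric parts of the other chromosomes and 54.6% in their arms. For H3K9me3 the shares were 70.4%, 33.9% and 39.4%. H3K9me3 peaks lay over a gene end in 23.1% of cases on chromosome 4, 4.22% in pericentric parts and 13.1% in arms. For HP1 these shares were 23.8%, 18.7% and 19.0%. A call was split into 1.96 HP1 and 1.79 H3K9me3 peaks on average on chromosome 4, into 1.52 and 1.24 in pericentric parts and 1.17 and 1.14 in arms. These differences were not tested.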

How the data were processed

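The authors deposited peak lists that give each call a score, a −log10 q-value and a fold enrichment, the ratio of its signal to what the caller expected locally. The score of every peak equals 10 times the deposited −log10 q-value, rounded down. The build was dm6, and MACS2 2.1.2, bedtools 2.26, Bowtie2 2.3.4.1 and SAMtools 1.10 are named, per the submitters' processing notes. The peak names carry dupsKept and allFrags. How replicates were combined and calls cut into intervals is not given in the sources used here. Another deposited list, of anti-GFP background regions, was used for comparison only.

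Intervals were intersected with a RefSeq gene table of Release 6 plus ISO1 MT, the same assembly, in Python 3.11.15 with numpy 2.4.6, pandas 2.3.3 and scipy 1.17.1. Positions are 1-based. All 114 genes of chromosome 4 were used for gene ends and bodies, and the 80 protein-coding ones for distances, profiles and body shares. The interval arithmetic was tested on simulated data. Peaks at most 2 kb apart were joined into domains, and gaps were called long from 10 kb. The pericentric parts of the other chromosomes were fixed lengths on the centromere side of each arm, set for this work. Those lengths were not varied, and the values for pericentric parts and arms depend on them. Profiles along genes were planned from start to end, but with no strand in the table they were folded from both ends. Exons, introns, UTRs, transposable elements and sequences were not used here. With single lists there was no test, so shares carry an exact binomial (Clopper-Pearson) 95% interval at most, for counting error only.

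The members, the gene lists and the rules were chosen with earlier results of these data known. Named genes are the list members (47 names, 46 genes, since Lin29 is a synonym of dati), the 5 genes most covered by both lists, the genes under neither, and those at the longest gaps, one-list stretches and widest peaks. Other genes were named after their values were seen. Alternatives covered the join distance, the overlap that counts as shared, a −log10 q of at least 10, the reach of a gene end, gene biotype and length, and calls joined into spans. The values of 1 gene are not reported here.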

Additional observations from a re-analysis of the deposited data

How the results depend on the processing

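No paired analysis was possible because the lists are of the whole series and hold no value per library, so replicates could not be left out either. Of 79 alternative values 59 stayed within 1.5 times the value given or, for touching shares, within its 95% interval, 18 moved farther and 2 changed side. Counting a gene from 10% of its body left 54 genes with HP1, 40 with H3K9me3, 23 with neither list (9 before) and 3 with H3K9me3 and no HP1 (0 before). Joining within 1000 or 5000 bp gave 151 or 35 domains, medians of 1045 or 13963 bp, and gaps of 2291.5 or 10639.5 bp, while long gaps stayed at 18 by construction, and numbered 17 with the stricter q-value. With each call as 1 span, HP1 spacing was 3074.5 bp and H3K9me3 spacing 2144 bp, and touching shares were 58.9% and 66.1%. HP1 peaks touching H3K9me3 were 40.1% when 50% of the peak had to be covered, 60.3% within 500 bp and 43.5% with the stricter q-value. H3K9me3 peaks touching HP1 were 46.3% and 68.1% in the first 2 cases. In genes of at least 5000 bp the outermost parts exceeded the middle by 0.229 percentage points for H3K9me3, against 9.02 in all genes. The H3K9me3 ratio for gene bodies, 0.982, was 1.00 with protein-coding genes only and 1.00 over the bases inside domains, an alternative chosen after seeing the data; it lies at about the chromosome's share either way. Inside domains the gene-end ratios were 1.58 for HP1, 1.15 for H3K9me3 and 0.347 for H3K9me3 without HP1. The cause was not tested. Depth could not be assessed without values per library.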

Other observations

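Non-coding genes of chromosome 4 followed no single pattern. Of 10 antisense RNA genes 7 had HP1 and 5 H3K9me3, of 14 long non-coding RNA genes 7 and 4, and of 7 pseudogenes 1 and 1. All these shares of genes are lower than those over the 80 protein-coding genes, of which 71 had HP1 and 56 H3K9me3. By median body share under HP1, antisense genes were higher, at 66.2% beside 19.5% in protein-coding genes. That median was 3.13% in long non-coding RNA genes and 0 in pseudogenes. For H3K9me3 the medians of the 3 groups were 4.90%, 0 and 0, beside 10.4%. The median lengths were 1571.5, 751 and 2746 bp, beside 10090 bp for protein-coding genes, so these groups differ in length as well. Of the 2 microRNA genes, mir-954, between mav and Gat, was wholly under both lists, and mir-9385, in the long gap beyond dati, was under neither. The antisense gene asRNA:CR43957, which overlaps the end of ci at 56497 to 63124, was 82.0% under HP1 and 9.79% under H3K9me3. The lncRNA:sphinx, inside fuss, was under neither. CUT&RUN has no strand, so peaks over an antisense gene cannot be told from peaks over its partner.

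Of 7 anti-GFP background regions on chromosome 4, 0 touched an HP1 peak and 1 touched an H3K9me3 peak. The authors named the list of these regions a blacklist. Whether peaks touching it were removed from the HP1 list is not given in the sources used here. The counts of 0 and 1 are therefore not a comparison of background between the lists. The region that touched H3K9me3 lies at 592941 to 593736, with a fold of 25.2. It overlaps the strongest H3K9me3 call of the chromosome, at 592739 to 593587 with a fold of 23.9, in the space between CG1909 and onecut. This H3K9me3 peak touches no HP1 peak. Another 4 background regions lie at 1278888 to 1296174, beyond the last H3K9me3 peak and before an HP1 peak of 306 bp at 1296772. With a fold of 29.7 this HP1 call is the fourth highest by fold, and it is the highest by −log10 q, at 483. The titles of the background libraries give yw and their genotype label GFP-HP1a/+, so whether these regions include tagged HP1a cannot be told.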
